A study of Mus musculus with 12 samples.

Results

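The comparison described here sets donor bone marrow progenitors that carry the label of both gene losses, Tet2 and Id1 together (dKO), against donor progenitors labelled wild type (WT). It holds every library with either genotype label, which is 6 of the 12 libraries of the series (3 labelled WT and 3 labelled dKO), and all genes of the deposited table, of which 14346 of 55450 had enough counts to be tested. The cells were Lin- ckit+ cells (LK cells: negative for markers of mature blood lineages and positive for the receptor Kit) of donor origin, sorted from the marrow of mice that had received a competitive transplant, in which donor and competitor cells share a host. RNA was made into stranded total RNA libraries after removal of ribosomal RNA. The other 6 libraries carry the labels Tet2KO and Id1KO, 3 each, and share 1 estimate of the spread with the 6 compared here. The alleles, the number of donors and recipients, their ages and the time after transplant are not given in the sources used here, and the mice contribute only sorted donor cells. All libraries of a genotype share 1 sample number in their titles, so they may be repeat libraries of 1 cell sample. The p-values therefore measure the spread between these libraries.

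TET2 is a dioxygenase that oxidises 5-methylcytosine in DNA, an early step of active demethylation, and loss of TET2 is a frequent driver of clonal hematopoiesis, the expansion of blood cells from a mutated stem cell. ID1 is a helix-loop-helix protein without a DNA-binding region. It pairs with E proteins such as those encoded by Tcf3, Tcf4 and Tcf12 and keeps them from E-box sequences in DNA, and it is known for roles in the growth of hematopoietic stem and progenitor cells and in their exit from quiescence. The title of the series states an interest in whether removal of Id1 limits clonal hematopoiesis and genomic instability after loss of Tet2. The comparison of dKO with WT asks which transcript levels differ once both genes are labelled as lost.

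Total estimated counts were 19024905 to 19959183 in libraries labelled WT and 15706407 to 16881651 in those labelled dKO, so the ranges did not overlap. Levels are given as CPM, the count divided by the library total after TMM scaling and multiplied by 1e6. Each difference is a log2 fold change of dKO against WT from edgeR's quasi-likelihood test, with its standard error (SE) and a p adjusted by the Benjamini-Hochberg method over all 14346 genes. A gene was called at an adjusted p under 0.05. Markers of the sorted cells were present in every library: Kit stood at 317 to 340 CPM, Cd34 at 287 to 346, Myb at 797 to 888 and Mpo at 8021 to 9928 over the 6 libraries. Defining genes of mature cells were near 0, with at most 1 count per library for Cd3e, 2 for Ms4a1, 2 for Ly6g and 1 for Pdgfra over the 12 libraries. Kit itself differed by -0.08 (adjusted p 0.0476), a call lost under 10 alternative settings.

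The gene-level counts of Tet2 and Id1 were both above WT under the dKO label, so the genotype names are used below as labels only. Tet2 (ENSMUSG00000040943.12, chr3:133463679-133545139, minus strand) stood at 98.6, 97.6 and 102 CPM in the libraries labelled WT and 121, 119 and 115 in those labelled dKO. The dKO libraries were all above the WT libraries, by 0.25 ± 0.031 on the log2 scale (adjusted p 7.21e-06). Id1 (ENSMUSG00000042745.9, chr2:152736251-152737410, plus strand) stood at 1.76, 1.24 and 1.405 CPM in the WT libraries and 4.18, 3.35 and 4.25 in the dKO libraries. Again the groups did not overlap, and dKO was the higher by 1.41 ± 0.17 (adjusted p 6.08e-06). The mean of Id1 was 3.86 CPM under Tet2KO and 3.96 under Id1KO, so WT was the lowest of the 4 labels. The mean of Tet2 was 129.9 CPM under Tet2KO and 92.003 under Id1KO. Counts were summed over each whole gene, so the loss of a single exon of Tet2 might not show in them. Xist, the long noncoding RNA that silences an X chromosome in female cells, differed by -3.97, from 272, 252 and 262 CPM in WT to 16.99, 16.3 and 16.8 in dKO. It overlaps Tsix on the opposite strand. The Y-linked genes Ddx3y, Eif2s3y, Uty and Kdm5d differed by 0.75, 0.76, 0.69 and 0.56, while the X-linked Kdm6a and Eif2s3x differed by -0.23 and -0.21. Each of these Y-linked genes had its lowest mean under WT. The mean of Ddx3y was 48.9 CPM under WT, 87.7 under Tet2KO, 93.4 under Id1KO and 82.1 under dKO. That of Eif2s3y was 36.5, 43.1, 54.2 and 61.7 CPM in the same order. Xist and Y-linked transcripts were thus both present in WT and dKO at different levels, and these Y-linked genes also set WT apart from the single labels. Their part in the results below was not tested, including patterns over the 4 labels and interactions of the labels.

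Of the 14346 genes tested, 2754 (19.2%) were called, 1467 of them higher in dKO (10.2% of genes tested) and 1287 lower (8.97%). Most differences were small. The median absolute log2 fold change of called genes was 0.26, against 0.10 over all genes tested, and 2111 of the called genes (76.7%) differed by less than 1.5-fold. Over 2-fold, 154 genes were higher and 92 lower. The values of the 6 libraries did not overlap between the labels for 2659 of the called genes, 96.6%, and for 33.1% of all genes tested. The common biological coefficient of variation over the 12 libraries was 0.031. Scaling moved the median of all genes, -0.003 on the log2 scale, by less than 0.02 under every alternative.

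**Figure D1:**
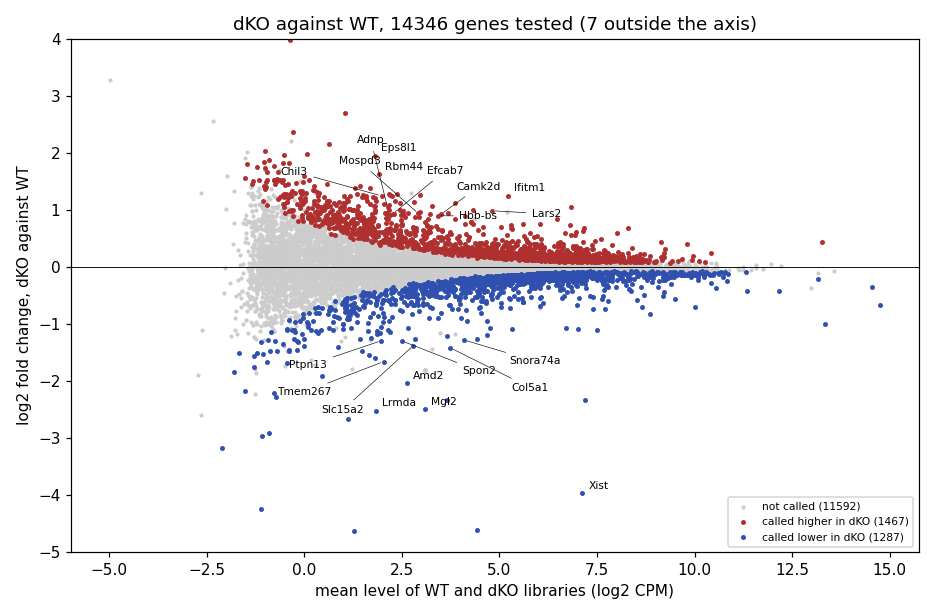
Log2 fold change of dKO against WT (vertical axis) plotted against the mean level of both groups in log2 CPM (horizontal axis) for the 14346 genes tested, with 1467 called higher in red, 1287 called lower in blue and the 10 highest and 10 lowest named genes labelled. Most called genes lie close to 0 and Xist stands apart at -3.97, while 7 genes fall outside the axis.

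The 10 genes with the highest and the 10 with the lowest fold change are described first, among called genes that reached 5 CPM in either group, did not overlap between the 6 libraries and have a name other than a Gm or Rik number. At the upper end stood Eps8l1, Rbm44, Ifitm1, Chil3, Adnp, Lars2, Mospd3, Efcab7, Camk2d and Hbb-bs. Eps8l1 (ENSMUSG00000006154.13, chr7:4460674-4480487), which encodes a relative of the actin regulator EPS8, was at 1.56, 1.34 and 1.405 CPM in WT and 5.64, 5.45 and 5.55 in dKO. The difference was 1.95 ± 0.14 (adjusted p 5.25e-09), and its mean was 1.89 CPM under the Tet2KO label and 8.24 under the Id1KO label. The 3 libraries labelled dKO thus lay between those labelled Tet2KO and Id1KO. Rbm44 (ENSMUSG00000070732.2, chr1:91145089-91170795), which encodes an RNA-binding protein, went from 1.45, 1.96 and 2.11 to 5.64, 6.29 and 5.14 CPM, a log2 fold change of 1.63 ± 0.15 (adjusted p 2.16e-07). Here the mean was highest under the Tet2KO label, at 8.26 CPM, and 3.67 under Id1KO.

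Ifitm1 (ENSMUSG00000025491.14, chr7:140967221-140969825) encodes an interferon-induced membrane protein that is also found on stem and progenitor cells. Its level was 23.02, 20.8 and 22.1 CPM in WT and 53.3, 50.5 and 53.2 in dKO, with 45.7 and 40.8 as the means of Tet2KO and Id1KO. All 3 dKO libraries were above every WT library, a difference of 1.25 ± 0.055 on the log2 scale (adjusted p 1.94e-12). Its neighbour Ifitm3 went from 44.2 ± 1.7 to 66.6 ± 3.7 CPM (SD, n = 3 libraries), by 0.59. Of 5 tested Ifitm genes these 2 were called, both higher, and the median of the 5 was 0.50. The promoter of Ifitm1 is shown because the gene had the highest dKO mean of the 10 at this end and its promoter has few CG pairs, the site of the methylation that TET enzymes act on. The 250 bases before its RefSeq start site (GRCm38.p6, chr7:140967826-140968075, plus strand) hold 4 CG pairs and no E-box, the sequence CANNTG to which E proteins bind, so no base is in capitals. GENCODE's gene model of Ifitm1 begins upstream of this RefSeq start.

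Ifitm1 promoter: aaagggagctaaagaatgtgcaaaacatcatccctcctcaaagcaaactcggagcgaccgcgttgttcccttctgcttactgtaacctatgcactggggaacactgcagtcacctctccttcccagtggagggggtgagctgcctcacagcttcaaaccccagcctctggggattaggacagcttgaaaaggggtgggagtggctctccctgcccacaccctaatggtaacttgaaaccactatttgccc

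Over the whole window of 300 bases (250 before and 50 after the start) Ifitm1 has 5 CG pairs, while the mean over 9433 tested protein-coding genes with a promoter in the table was 21.2.

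Chil3, a secreted chitinase-like protein of myeloid cells, went from 2.54, 2.22 and 2.27 to 4.94, 6.35 and 5.38 CPM (1.24 ± 0.16). Lars2, the mitochondrial leucyl-tRNA synthetase, went from 18.95 ± 1.5 to 37.5 ± 2.3 CPM (SD, n = 3; 0.98 ± 0.2, adjusted p 0.0012). Camk2d, a calcium/calmodulin-dependent kinase subunit, went from 8.71, 7.27 and 7.57 to 14.5, 15.7 and 14.5 (0.92 ± 0.095). For each of these 3 genes the mean of every other label was below that of dKO. Mospd3 and Efcab7 had log2 fold changes of 0.94 and 0.93, at 9.96 and 6.35 CPM in dKO. Adnp, a chromatin-associated homeodomain protein, had 1.04 ± 0.31 (adjusted p 0.0221), but its exons are shared with the same-strand model Gm20716, and the sum of both differed by 0.23. The call of Adnp alone was lost under DESeq2 and without WT replicate 2, WT replicate 3 or dKO replicate 1, with an adjusted p of up to 0.112, and the log2 fold change of Adnp ran from 0.68 without WT replicate 2 to 1.501 without WT replicate 1.

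The lower end held Xist, Lrmda, Mgl2, Amd2, Tmem267, Col5a1, Slc15a2, Spon2, Ptpn13 and Snora74a. Lrmda (ENSMUSG00000063458.13, chr14:22019712-23056085), a gene linked to melanocyte differentiation, was at 6.07, 6.03 and 6.21 CPM in WT and 1.08, 1.02 and 1.06 in dKO. The difference was -2.53 ± 0.2 (adjusted p 1.26e-08), and the means of Tet2KO and Id1KO were 5.53 and 1.004. Libraries with either Id1-null label were therefore low and the others high. Mgl2 (ENSMUSG00000040950.13, chr11:70130329-70137550), a lectin receptor of dendritic cells and macrophages, was at 15.1, 14.02 and 14.5 CPM in WT and 2.85, 2.63 and 2.24 in dKO, a difference of -2.497 ± 0.15 (adjusted p 3.47e-10). Its mean was 5.15 under Tet2KO and 11.7 under Id1KO. Mgl2 shares sequence with Clec10a, and the sum of both fell by 1.42 on the log2 scale.

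Col5a1, the alpha chain of fibrillar collagen V, stood at 20.01, 19.4 and 19.3 CPM in WT and 6.85, 7.12 and 7.92 in dKO (-1.42 ± 0.1, adjusted p 5.25e-09). Slc15a2, a peptide transporter, went from 8.97, 10.4 and 10.7 to 4.31, 3.47 and 3.72 (-1.38). Spon2, a secreted matrix protein, went from 8.19, 8.301 and 7.57 to 3.55, 3.41 and 2.84 (-1.297). All 3 were also low under the Tet2KO label, with means of 3.97, 5.06 and 2.36 CPM, and near the WT level under Id1KO, with 18.2, 9.94 and 9.11. Ptpn13, a large tyrosine phosphatase, and Tmem267 fell by 1.297 and 1.66. Snora74a, a small nucleolar RNA that lies within AC121821.1, fell by 1.28. Amd2, a copy of the polyamine enzyme gene Amd1, fell by 2.04 alone, but the sum with Amd1 and Amd-ps3 differed by 0.05 (adjusted p 0.237), so the value of Amd2 alone is uncertain.

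**Figure D2:**
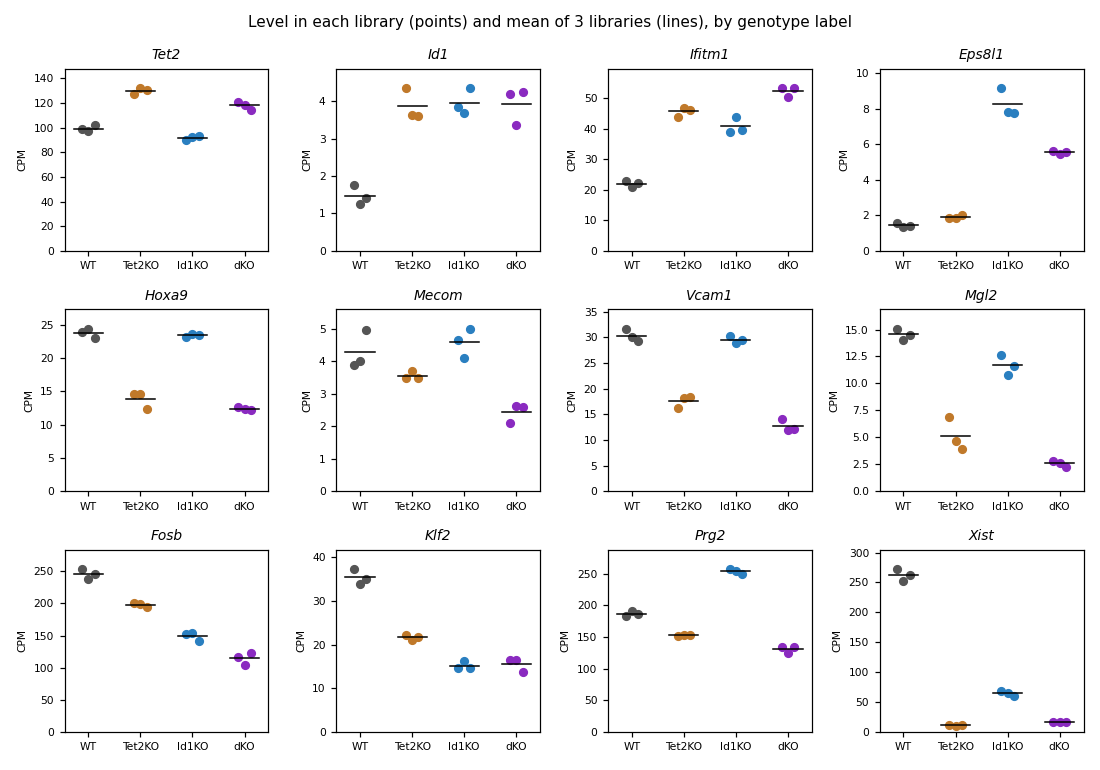
Level in CPM (vertical axis of each panel, from 0) of 12 genes in each of the 12 libraries, by genotype label, with points for libraries and a line for the mean of 3. Ifitm1 was lowest under WT, Hoxa9, Vcam1 and Mgl2 were low under Tet2KO and dKO, Fosb and Klf2 were highest under WT, and neither Tet2 nor Id1 was lower in dKO than in WT.

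Among genes of stem and multipotent cells, Hoxa7, Hoxa9, Hoxa10 and Mecom were lower in dKO while Tek was higher. Of this list 4 of 23 tested members were called higher and 9 lower, with a median log2 fold change of -0.07 (all genes tested: -0.003). In all 56.5% were called, against 19.2% of all genes tested. Hoxa9 (ENSMUSG00000038227.15, chr6:52223100-52231089), a homeodomain factor that maintains self-renewal of progenitors, was at 23.9, 24.4 and 22.97 CPM in WT and 12.6, 12.3 and 12.2 in dKO. The dKO libraries were all lower, at -0.94 ± 0.067 (adjusted p 3.49e-09), and the level was 13.9 under Tet2KO and 23.4 under Id1KO. Hoxa7, which overlaps Hoxaas3 on the opposite strand, went from 12.2 ± 0.79 to 7.36 ± 0.48 CPM (-0.72 ± 0.095). Hoxa10, at a WT mean of 0.997 CPM, fell by 1.08 (adjusted p 0.0416), and Hoxa5 had -0.38 with an adjusted p of 0.363. For Hoxa10 the groups overlapped, with 13 to 25 counts in WT libraries and 5 to 12 in dKO libraries. Meis1, the usual partner of HOXA9, had 0.13 with an adjusted p of 0.0524.

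Mecom (ENSMUSG00000027684.16, chr3:29951296-30548008), which encodes the stem cell factor EVI1, was at 3.89, 4.02 and 4.97 CPM in WT and 2.09, 2.63 and 2.599 in dKO. The groups did not overlap, and the difference was -0.81 ± 0.15 (adjusted p 0.000632). Tek, the angiopoietin receptor of stem cells, was at 4.87, 5.41 and 5.73 CPM in WT and 9.19, 8.501 and 8.09 in dKO (0.69 ± 0.11, adjusted p 0.000118), whereas its ligand gene Angpt1 fell by 0.19. Prdm16 rose by 0.63, and Cd34, Gata2 and Hlf fell by 0.23, 0.22 and 0.28. Members of this list thus changed in both directions.

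Neutrophil granule genes were divided. Of that list 7 of 23 tested members were called higher and 7 lower (median 0.10), or 60.9% called against 19.2% of all genes. Among those that fell, Mpo (myeloperoxidase) went from 9912 ± 20 to 8505 ± 426 CPM (-0.22), Elane (neutrophil elastase) from 1512 ± 17 to 1238 ± 70 (-0.29) and Ctsg (cathepsin G) from 1272 ± 43 to 1130 ± 54 (-0.17). Cebpe and Gfi1, transcription factors of granulocyte maturation, fell by 0.48 and 0.30. Among those that rose, S100a9, a calcium-binding alarmin, was at 11.1, 12.01 and 13.1 CPM in WT and 22.6, 23.3 and 21.2 in dKO (0.89 ± 0.075, adjusted p 3.92e-08). Ltf (lactoferrin) went from 3.36 ± 0.28 to 5.26 ± 0.27 (0.65) and Lcn2 (lipocalin 2) from 5.71 ± 0.58 to 8.802 ± 0.36 (0.62), while Itgam and Cd177 fell by 0.36 and 0.91. Ly6g, which defines mature neutrophils, had at most 2 counts in any library. In libraries of sorted cells, fewer cells of a type and less RNA per cell cannot be told apart, which holds for each lineage list.

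More monocyte and dendritic genes were called higher than lower, but those with the largest change were lower. In that list 8 of 28 tested members were called higher and 3 lower (median 0.09), or 39.3% called against 19.2% of all genes. Ccr2, the chemokine receptor of inflammatory monocytes, was at 139, 152 and 149.6 CPM in WT and 198, 210.2 and 199 in dKO (0.46 ± 0.036, adjusted p 1.17e-08). Itgax, Mpeg1, Ctss, Ly6c2 and Csf1r rose by 0.55, 0.25, 0.22, 0.20 and 0.19. Irf8, a factor that directs monocyte and dendritic fate, had 0.06 with an adjusted p of 0.18. The 3 that fell were Mgl2 (above), Cx3cr1 (-0.23) and Vcam1.

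Vcam1 (ENSMUSG00000027962.14, chr3:116109949-116129688), an adhesion molecule of stroma, macrophages and some stem cells, was at 31.7, 30.01 and 29.3 CPM in WT and 14.01, 11.9 and 12.1 in dKO, and at 17.6 and 29.5 on average under Tet2KO and Id1KO. It differed by -1.26 ± 0.067 (adjusted p 4.66e-11). Of stroma and endothelium markers, Col1a1 had at most 3 counts in a library, Cdh5 at most 3 and Cxcl12 at most 6, while Emcn had up to 20, Col1a2 up to 23 and Pecam1, which blood cells also express, up to 2135. The part of such cells in the Vcam1 difference was not tested. Of 8 tested stroma and endothelium genes, 1 was called higher and 2 lower, or 37.5% called against 19.2% of all genes. Among 19 tested genes of marrow homing and adhesion, 2 were higher and 4 lower, or 31.6% called. Cxcr4, the receptor that retains cells in the marrow, rose by 0.15 and Itga5 by 0.16. Itgb2, Cd93 and Selplg fell by 0.22, 0.17 and 0.14.

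More genes of mast cells, basophils and eosinophils were called lower than higher. Here 2 of 20 tested members were called higher and 9 lower (median -0.16), or 55% called against 19.2% of all genes. The count lower was 7 without WT replicate 2, the fewest under any setting. Prg2 (ENSMUSG00000027073.5, chr2:84980461-84983632), the eosinophil major basic protein, was at 183, 191 and 186 CPM in WT and 134, 125 and 135 in dKO, a difference of -0.51 ± 0.03 (adjusted p 3e-10). Under the single labels it was 153 in Tet2KO and 253 in Id1KO, so the 4 labels were ordered Id1KO, WT, Tet2KO, dKO. Its neighbour Prg3 fell by 0.67 and Epx (eosinophil peroxidase) by 0.38. Ms4a2, the beta chain of the IgE receptor, was at 30.7, 29.1 and 33.2 CPM in WT and 19.9, 21.1 and 18.7 in dKO (-0.64, adjusted p 1.64e-07). Hdc (histamine synthesis) and Cpa3 (mast cell carboxypeptidase) fell by 0.32 and 0.18. Prss34, a basophil protease, rose by 0.33, as did Mitf, by 0.27, a call lost under 9 settings.

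The globins rose in an erythroid list whose median was near that of all genes. Of these 9 of 29 tested members were called higher and 4 lower (median 0.02), or 44.8% called against 19.2% of all genes. Leaving out dKO replicate 1 left 5 higher. Hbb-bs (ENSMUSG00000052305.6, chr7:103826534-103828096), an adult beta-globin, was at 7.98, 7.63 and 6.97 CPM in WT and 15.6, 13.4 and 13.1 in dKO (0.90 ± 0.098, adjusted p 1.6e-06). It shares sequence with Hbb-bt, and the sum of both differed by 0.79, while the sum of the alpha-globins Hba-a1 and Hba-a2 differed by 0.59. The globins were at 4.404 (Hbb-bs) and 4.79 CPM (Hba-a2) under Tet2KO, below WT. Slc4a1 (band 3) rose by 0.85 at 1.51 CPM and Tfrc (transferrin receptor) by 0.25 at 342, whereas Icam4, Tspo2, Rhd and Car1 fell by 0.50, 0.30, 0.20 and 0.16. Among 13 heme synthesis genes, 2 were higher (Cpox 0.10, Slc25a37 0.12) and 3 lower (Alad -0.14, Abcb10 -0.16, Alas1 -0.11), or 38.5% called. Under DESeq2 none of this list was called higher, and the call of Slc25a37 was lost under 8 settings. Summed with its copies, Slc25a37 differed by -0.05 (adjusted p 0.469).

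The promoter of Hbb-bs is shown because globin promoters are regulated by GATA1, which binds GATA sequences. The 250 bases before its RefSeq start (GRCm38.p6, chr7:103827929-103828178, minus strand, 5′ to 3′) hold 1 GATA match, AGATAA, in capitals. GENCODE's model of Hbb-bs begins upstream of this RefSeq start. A match is a description of letters and not of binding.

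Hbb-bs promoter: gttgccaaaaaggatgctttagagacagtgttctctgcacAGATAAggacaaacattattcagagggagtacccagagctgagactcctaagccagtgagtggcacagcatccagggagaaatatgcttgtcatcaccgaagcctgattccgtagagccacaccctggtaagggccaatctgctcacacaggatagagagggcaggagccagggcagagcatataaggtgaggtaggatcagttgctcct

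Over 9433 protein-coding promoters of 300 bases, TGATAA or AGATAA on either strand was found in 10.3%, with 10.6% among the 866 called higher and 10.5% among the 888 called lower.

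Megakaryocyte and platelet genes had 5 of 20 called higher (3 under DESeq2) and 1 lower (median 0.16), so 30% were called against 19.2% of all genes. Among them the platelet protein genes Mmrn1, Rab27b and Itgb3 rose by 0.41, 0.29 and 0.17. Thbs1, the platelet thrombospondin, went the other way, from 8.62 ± 0.23 to 4.85 ± 0.43 CPM (-0.83 ± 0.12). In the lymphoid list 4 of 22 tested members were called higher and 3 lower (31.8% called, median -0.15), with 2 higher under DESeq2. Dntt, the terminal transferase of lymphoid progenitors, was at 28.4, 32.5 and 29.5 CPM in WT and 21.5, 18.9 and 19.3 in dKO (-0.60 ± 0.069, adjusted p 3.04e-06). Tcf7 fell by 0.82 at 1.02 to 2.05 CPM over the 6 libraries, and Notch1 rose by 0.24. The natural killer genes Ncr1 and Il2rb rose by 1.53 and 0.67 at dKO means of 0.775 and 2.13 CPM, where Klrb1c was also present at 0.761 to 0.898 CPM in dKO and 0.324 to 0.778 in WT without a call (adjusted p 0.245).

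Immediate early genes, which are transcribed within minutes of a stimulus, were lower in dKO. In this list 2 of 22 tested members were called higher and 10 lower (median -0.22), or 54.5% called against 19.2% of all genes. Under every setting 9 or 10 were lower. Fosb (ENSMUSG00000003545.3, chr7:19302696-19310051), an AP-1 subunit, was at 253, 239 and 247 CPM in WT and 117, 104 and 122 in dKO. The libraries of the 4 labels were ordered WT, Tet2KO (198 on average), Id1KO (149), dKO, and dKO differed from WT by -1.105 ± 0.043 (adjusted p 2.71e-13). Klf2 (ENSMUSG00000055148.7, chr8:72319033-72321656), a factor of quiescence, was at 37.3, 33.9 and 35.02 CPM and 16.5, 16.4 and 13.7 (-1.19 ± 0.067), with 15.1 under Id1KO. Dusp1, a phosphatase that switches off MAP kinases, was at 121, 109 and 116 CPM and 76.2, 79.3 and 81.6 (-0.55). Jun, Klf6, Egr1, Jund and Fos fell by 0.43, 0.42, 0.42, 0.40 and 0.35, and Zfp36 and Ier2 by 0.23 and 0.18. Fosl2 and Klf4 rose by 0.28 and 0.21. The groups did not overlap for Fosb, Klf2 or Dusp1.

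The Fosb promoter is shown because the gene had the lowest fold change of this list after Klf2, and because E proteins, the partners of ID1, bind E-boxes. The 250 bases before its RefSeq start (GRCm38.p6, chr7:19310046-19310295, minus strand) hold 2 E-boxes (CANNTG), both CAGGTG, in capitals.

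Fosb promoter: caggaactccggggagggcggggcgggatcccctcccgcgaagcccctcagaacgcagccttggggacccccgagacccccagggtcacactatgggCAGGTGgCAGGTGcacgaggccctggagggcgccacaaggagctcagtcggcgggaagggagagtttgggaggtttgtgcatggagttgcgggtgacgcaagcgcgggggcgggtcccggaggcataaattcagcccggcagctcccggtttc

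A CANNTG was present in 62.9% of the 9433 promoters, in 58.4% of those of genes called higher and in 62.5% of those called lower. The forms CAGCTG or CAGGTG, read on both strands and contained in the former, were present in 28.4%, 24.4% and 30.2%.

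In the JAK-STAT list 5 of 25 tested members were called higher and 1 lower (median 0.03), with 2 higher without WT replicate 2. The share called was 24%, near the 19.2% of all genes tested. Socs3, a feedback inhibitor of cytokine receptors, was scarce but separate: 1.56, 1.91 and 2.22 CPM in WT and 4.31, 4.07 and 4.25 in dKO (1.15 ± 0.15, adjusted p 1.56e-05). Its mean was 5.63 under Id1KO and 3.58 under Tet2KO, both above WT. Pim1, a kinase induced by STAT5, was at 106, 99.3 and 103 CPM and 135, 127 and 134 (0.36 ± 0.032, adjusted p 7.36e-08), and Pim2 rose by 0.48. Jak2 fell by 0.16. The Socs3 promoter is shown for its STAT sequence: the 250 bases before the RefSeq start (GRCm38.p6, chr11:117969367-117969616, minus strand) hold 1 match to TTCNNNGAA, in capitals, and 26 CG pairs. GENCODE's model of Socs3 begins upstream of this RefSeq start, at chr11:117970047, so the window lies inside the span of that model.

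Socs3 promoter: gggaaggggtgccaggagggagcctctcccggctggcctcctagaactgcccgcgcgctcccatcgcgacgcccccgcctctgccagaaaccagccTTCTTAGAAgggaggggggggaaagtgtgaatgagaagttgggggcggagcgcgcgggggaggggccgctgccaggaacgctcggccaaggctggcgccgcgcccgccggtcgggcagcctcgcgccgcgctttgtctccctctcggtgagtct

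TTCNNNGAA, which reads the same pattern on both strands, occurred in 6.91% of all 9433 promoters, 8.43% of those called higher and 5.74% of those called lower. GAANNTTC, used for heat shock elements, occurred in 5.64%, 6.24% and 3.94%, and the core of the interferon response element in 3.19%, 4.5% and 3.49%. Promoters of genes called higher had a mean of 22.2 CG pairs and those of genes called lower 20.2, against 21.2 for all.

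Receptors for myeloid cytokines moved apart. Of 25 tested, 7 were higher and 5 lower (2 under DESeq2), so 48% were called against 19.2% of all genes. Csf2ra, the alpha chain of the GM-CSF receptor, was at 51.5, 49.96 and 57.7 CPM in WT and 36.8, 34.7 and 35.97 in dKO (-0.57 ± 0.055), while the shared beta chain rose: Csf2rb2 by 0.83 alone and the sum of the similar Csf2rb and Csf2rb2 by 0.21. The interleukin 6 receptor chains Il6ra and Il6st rose by 0.36 and 0.31. Ifngr1, Il1r1 and Tgfbr2, receptors for interferon gamma, interleukin 1 and TGF-beta, fell by 0.32, 0.34 and 0.18.

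Interferon response genes did not shift together. Of that list 8 of 48 tested members were called higher and 7 lower (31.25% called, median 0.06), with 3 lower without WT replicate 2. Iigp1 and Slfn2 rose by 0.80 and 0.61 (the sum of Slfn2 and its copy Slfn3 by 0.25), and Ifi203, Oas1a and Gbp2 by 0.31, 0.28 and 0.22. Ddx58, Ifit2 and Psmb9 fell by 0.25, 0.23 and 0.17. Of 21 genes of MHC and antigen presentation, 3 were higher (1 without WT replicate 2) and 5 lower, so 38.1% were called. Tap2, a subunit of the peptide transporter, was at 160.1, 159 and 168 CPM in WT and 136, 123 and 136 in dKO (-0.30 ± 0.035), and Tapbp, Tap1, H2-K1 and B2m fell by 0.19, 0.14, 0.13 and 0.10. In the TNF and NF-kB list 2 of 27 were higher (Bcl3 0.56, Rel 0.42) and 4 lower (Nlrp3 -0.52, Nfkbie -0.32, Tnfaip3 -0.26, Nfkbia -0.16). The last 3 encode brakes on the pathway and NLRP3 is the sensor of an inflammasome. Of the TNF and NF-kB list 22.2% were called, near the 19.2% of all genes tested.

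Genes of mitosis rose together by small amounts. Of 35 genes of G2 and M phase, 26 were called higher and 1 lower, with a median of 0.15. That is 77.1% called, against 19.2% of all genes, and 23 to 26 were higher under every setting. Plk1, a mitotic kinase, was at 45.2, 45.7 and 42.96 CPM in WT and 57.4, 54.5 and 59.5 in dKO (0.36 ± 0.046, adjusted p 1.03e-05). Kif23, a motor of cytokinesis, was at 62.4, 61.9 and 59.1 CPM and 75.1, 76.03 and 78.5 (0.32 ± 0.036), and Cenpe, a kinetochore motor, at 110.4, 113 and 113 and 134, 144 and 135 (0.30 ± 0.03). In each the 3 dKO libraries were above the 3 WT libraries. Mki67, Kif2c, Aurka, Kif11, Ccnb1 and Cdk1 rose by 0.20, 0.29, 0.28, 0.21, 0.14 and 0.15, and Cks2 fell by 0.17. The list median was -0.03 in Tet2KO against WT and 0.12 in Id1KO against WT, contrasts that share the WT libraries. S phase genes were mostly level: 5 of 35 were higher and 1 lower (median 0.01, 17.1% called), with Rrm2 at 0.15 and Tk1 at -0.23. Without WT replicate 3, 2 were higher.

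In the list of DNA damage and repair 7 of 49 tested members were called higher and 3 lower (median 0.02), so that 10 of 49 were called, near the 19.2% of all genes. Among those that rose were Fancc 0.24, Polq 0.21, Palb2 0.16, Chek2 0.16 and Fancm 0.12. The call of Fancc was lost without dKO replicate 1 (edgeR adjusted p 0.0691). Xpc, the damage sensor of nucleotide excision repair, was at 112, 116 and 109 CPM in WT and 86.5, 83.8 and 86.5 in dKO (-0.40 ± 0.033, adjusted p 3.22e-08), and Ung (uracil glycosylase) and Xrcc5 (end joining) fell by 0.25 and 0.22. Under DESeq2 3 members of the list were called higher. Trp53 had 0.07 (adjusted p 0.167). Of 25 p53 targets, 3 were higher by edgeR and 1 by DESeq2 (Cdkn1a 0.49, Gtse1 0.26, Mdm2 0.16) and 3 lower (Ptprv -0.89, Perp -0.80, Xpc). The share of these targets called by edgeR, 24%, was also near that of all genes. Cdkn1a, the inhibitor p21, was at 4.04, 3.61 and 3.57 CPM in WT and 6.402, 4.79 and 4.67 in dKO, and its call (adjusted p 0.0269) was lost under 5 settings, with an adjusted p of up to 0.157.

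Among CDK inhibitors and cyclins the clearest difference was in Ccnd1, cyclin D1, which overlaps LTO1 on the opposite strand. It was at 34.3, 31.7 and 35.02 CPM in WT and 19.2, 15.6 and 17.4 in dKO (-0.95 ± 0.067, adjusted p 3.25e-09), and at 16.4 under Tet2KO and 32.97 under Id1KO. Ccnd2, Ccnd3 and Cdk6 rose by 0.12, 0.12 and 0.10, and none of the 4 rises of this list, which include Cdkn1a, passed the threshold without WT replicate 2. Cdkn1b had 0.06 (adjusted p 0.296), Cdkn1c had at most 12 counts per library and Cdkn2a none. In the Bcl2 family 2 of 15 fell, Mcl1 by 0.15 and Bid by 0.11, where 8.97% of all genes were lower. The call of Bid was lost under 7 settings, with an adjusted p of up to 0.111.

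Of the other TET genes, Tet3 was called and Tet1 was not. Tet3 was at 146, 131 and 131 CPM in WT and 174, 162 and 171 in dKO (0.31 ± 0.039, adjusted p 8.99e-06). Tet1 was at 34.1, 32.1 and 33.2 and 29.3, 29.04 and 30.9 (-0.15, adjusted p 0.078), with no overlap between the groups but no call. Of 19 genes of DNA methylation, demethylation and base excision, 4 rose (Tet2, Tet3, Ogt 0.23, Mbd3 0.18) and none fell by edgeR, with a median of 0.03. The share called, 21.1%, was near the 19.2% of all genes tested. Among other genes mutated in clonal hematopoiesis, 4 of 24 rose and 2 fell, so 25% were called. Cbl, a ubiquitin ligase for Kit and other receptors, was at 129, 115 and 116 CPM in WT and 161, 165 and 162 in dKO (0.44 ± 0.036), and Runx1, Ezh2 and Rad21 rose by 0.20, 0.20 and 0.15.

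The E protein genes Tcf3, Tcf4 and Tcf12, which encode partners of ID1, differed little from WT. Tcf3 had -0.01 (adjusted p 0.894), Tcf4 0.09 (0.143) and Tcf12 0.13 (0.0107). The call of Tcf12 was lost without dKO replicate 1 (edgeR adjusted p 0.0543). Id2 had -0.03 (adjusted p 0.902), at 6.95, 7.12 and 6.75 CPM in WT and 6.21, 6.47 and 7.74 in dKO, so the groups overlapped. Id3 had at most 9 counts per library and Id4 at most 1, too few to test. A wider list also holds Id1 and genes such as Mycn, Mxi1 and Lmo2, which are not E protein genes. Of its 19 tested members, 4 were higher and 4 lower (2 under DESeq2). The share called was 42.1%, against 19.2% of all genes tested. Of Tcf3, Tcf4 and Tcf12 only Tcf12 was called. Beside Id1 and Tcf12, Mycn rose by 0.47 and Mitf by 0.27, and Mxi1, Lmo4, Mxd4 and Lmo2 fell by 0.38, 0.17, 0.12 and 0.09. MYCN drives growth, and MXI1 and MXD4 compete with MYC proteins for their partner MAX.

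**Figure D3:**
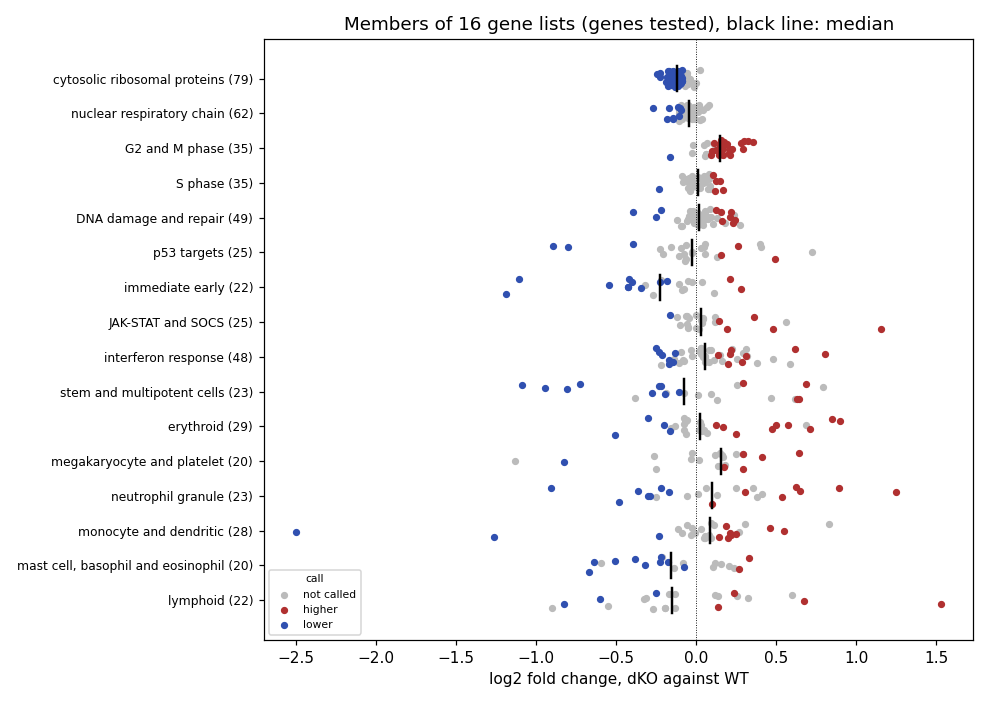
Log2 fold change of dKO against WT (horizontal axis) for the tested members of 16 gene lists (rows, number tested in brackets), coloured by call, with the median as a black line. Ribosomal protein genes lie left of 0 in a narrow band, G2 and M phase genes lie right of 0, and the lineage lists spread to both sides.

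Genes of the cytosolic ribosome were lower by a uniform small amount. Of 79 tested, 59 were called lower and none higher by edgeR, or 74.7% called against 19.2% of all genes. The median was -0.12, and 78 of the 79 had a negative value. The count lower ran from 46 without WT replicate 2 to 64, and none was called higher under any setting. Rpl39 had the largest difference, from 579.5, 606 and 582 CPM in WT to 486, 504 and 505 in dKO (-0.24 ± 0.027, adjusted p 2e-06), followed by Rps21 (-0.23) and Rps29 (-0.22). Their summed share of all counts was 8.35% to 8.64% in WT and 8.08% to 8.27% in dKO, without overlap. The median of the same list was -0.07 in Tet2KO and -0.03 in Id1KO against the same WT libraries. Among 62 nuclear genes of the respiratory chain, 9 were lower by edgeR, 4 by DESeq2, and none higher by edgeR (median -0.04, 14.5% called). Ndufa1 of complex I fell by 0.27 and Cox7a2 of complex IV by 0.17.

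In other metabolic and stress lists the share called was no higher than the 19.2% of all genes. Glycolysis and hypoxia had 2 of 26 higher and 3 lower, with Vegfa, the endothelial growth factor, at 29.96, 27.1 and 28.9 CPM in WT and 18.9, 18.4 and 19.3 in dKO (-0.60 ± 0.055, adjusted p 1.37e-07). Sterol and fatty acid synthesis had 1 of 28 higher (Hmgcs1 0.27) and 3 lower (Scd2 -0.25, Sc5d -0.21, Srebf1 -0.18). Heat shock genes had 2 of 19 higher (Hsph1 0.20, Chordc1 0.14) and 1 lower, Hspa1a, whose sum with its copy Hspa1b fell by 0.32. ATF4 targets had 2 of 23 higher (Vldlr 0.60, Shmt2 0.13) and 1 lower (Atf4 -0.09). The call of Atf4 was lost under 8 settings, DESeq2 among them, and that of Shmt2 under 3. ER chaperones had 1 of 22 higher (Herpud1 0.13) and 3 lower (Ppib -0.15, Calr -0.13, Pdia4 -0.08). Of 30 clustered histone genes 2 were higher and 1 lower, and of these Hist1h4m and Hist1h4n are near-identical copies whose sum with other H4 genes differed by -0.02 (adjusted p 0.798).

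Structural RNAs were the most abundant called genes. The 7SL RNAs of the signal recognition particle, Rn7s2 and Rn7s1, were both lower. Rn7s2 was at 35384, 33918 and 32065 CPM in WT and 23516, 18636 and 21784 in dKO (-0.66 ± 0.055), and Rn7s1 at 12344, 14336 and 14457 and 6784, 6319 and 7524 (-0.996 ± 0.066). They are copies of each other, and the sum of all 4 similar genes fell by 0.76. Rn7sk, which holds the elongation factor P-TEFb inactive, was at 25886, 27583 and 26820 CPM in WT and 21932, 19036 and 22228 in dKO (-0.35 ± 0.042, adjusted p 5.5e-06). The annotation class that holds these genes (misc_RNA) made up 7.14% to 7.38% of counts in WT, 4.49% to 5.25% in dKO and 4.71% to 5.06% in the other 6 libraries. The abundant model Gm26917, annotated as noncoding and chosen after its values were seen, went the other way. It was at 8525, 8063 and 8550 CPM in WT and 11446, 10286 and 12147 in dKO (0.43 ± 0.048, adjusted p 1.94e-06). Which RNA its reads come from was not tested. Small nucleolar RNAs, which guide modification of ribosomal RNA, had 23 of 62 lower and 3 higher (median -0.44), or 41.9% called. Of all genes 19.2% were called. Under DESeq2 15 small nucleolar RNAs were lower. Of 15 mitochondrially encoded genes 10 were lower and none higher, or 66.7% called. The level of mt-Co1 was 5179, 5281 and 5256 CPM in WT and 3801, 4075 and 3791 in dKO (-0.43). That of mt-Cytb was 921, 837 and 830.2 in WT and 569.7, 616 and 568 in dKO (-0.56). Mitochondrial ribosomal RNA was a share of 1.32% in WT replicate 1 against 0.73% and 0.83% in the other WT libraries.

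Short models, most of them inside the span of another gene, went the other way. GENCODE's classes TEC (provisional models) and sense_intronic together had 299 of 887 called higher and 6 lower, with class medians of 0.49 and 0.53. The shares called were 34.3% and 35.1%, against 19.2% of all genes. Of these 887, 696 lie inside a tested protein-coding gene on the same strand, in 489 host genes. The models had a median of 0.55 and their hosts 0.04, and 636 of 696 models were above their host. Among the 269 called higher, the hosts' median was 0.06. Their share of all counts was 0.186% to 0.194% in WT, 0.258% to 0.277% in dKO, 0.237% to 0.246% under Tet2KO and 0.201% to 0.208% under Id1KO, and the 4 ranges did not overlap. Under DESeq2 199 were higher, and under the other settings up to 308. Reads of a host's unspliced RNA and of a transcript of the model's own cannot be told apart in these counts.

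**Figure D4:**
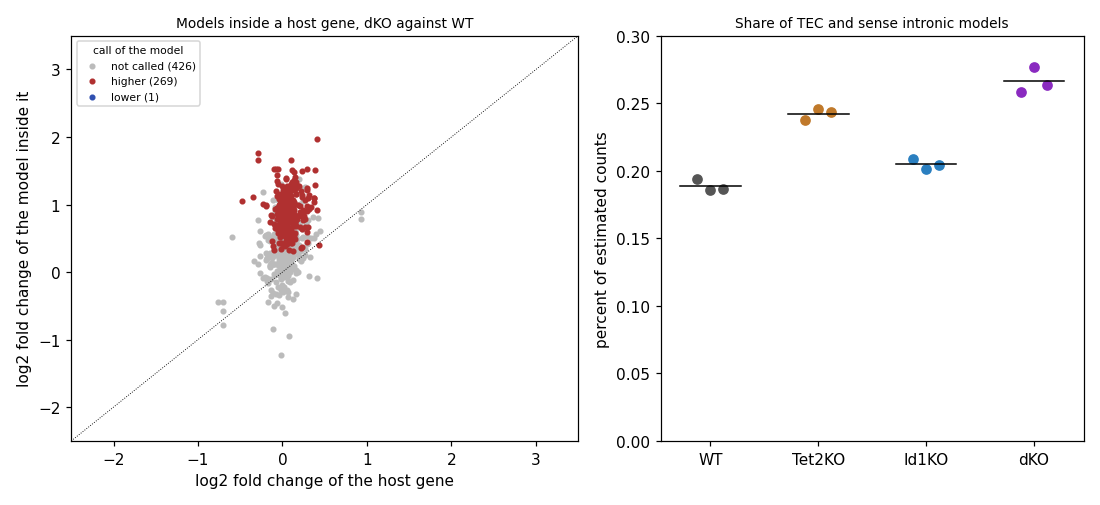
Left, log2 fold change (dKO against WT) of 696 models inside a host gene (vertical axis) against that of their host genes (horizontal axis), coloured by call, where most called points lie above the dotted line of equality. Right, share of TEC and sense intronic models in the estimated counts of each library (points, with the mean of 3 as a line), lowest under WT and highest under dKO, and 2 models fall outside the left axes.

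Calls also followed the size, base composition and level of genes. Protein-coding genes were divided into 5 equal groups by exonic length, and the share called was 15.5% in the shortest and 28.3% in the longest. The longest had 500 higher and 178 lower (median log2 fold change 0.04) and the shortest 91 higher and 280 lower (median -0.04). By GC content of the exons, the lowest of 5 groups had 343 higher and 136 lower and the highest 130 higher and 255 lower. By mean CPM of WT and dKO, 11.4% were called in the lowest of 5 groups and 29.3% in the highest. Among long genes chosen after their values were seen, Ahnak, a very large scaffold protein, was at 114, 111 and 109 CPM in WT and 181, 181 and 175 in dKO (0.69 ± 0.028), and the imprinted noncoding RNA Kcnq1ot1 at 249, 239 and 235 and 377, 407 and 374 (0.68 ± 0.033). Dusp1, Fancc, Bid, Tk1 and Ppib, named above, overlap exons of a gene on the opposite strand, and Tapbp, Ifi203 and Oas1a share exons or sequence with another gene. Library totals, the shares of structural RNA and the gradients by length and GC content all move with the label. Their part in the list results was not tested, nor was that of level. With counts thinned to the smallest library, 2479 genes were called.

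Genes near the targeted loci were examined because alleles from another strain carry their flanks. Within 10 Mb of Id1 on chromosome 2, 47 of 159 tested genes (29.6%) were called, 17 higher and 30 lower, against 19.2% of all genes. Within 2 Mb the share was 23.4% (11 of 47). Around Tet2 on chromosome 3 it was 20.5% (17 of 83) within 10 Mb and 1 of 19 within 2 Mb. The 1 called gene within 2 Mb of Tet2 was Cenpe, named above. Camk2d, at -6.95 Mb from Tet2, and Cd93, at -4.3 Mb from Id1, were also named above and lie in these windows. The counts near Id1 fell to 10 higher without WT replicate 2 and to 19 lower under DESeq2. Ahcy, which clears S-adenosylhomocysteine after methylation reactions, was at 133, 147 and 141 CPM in WT and 69.5, 63.1 and 67.6 in dKO (-1.08 ± 0.053, adjusted p 1.44e-11). Its mean was 276 under Tet2KO and 74.8 under Id1KO, so it also stood apart from WT under the label that does not name Id1. Rin2, Snx5 and Dstn, a group on the other side of Id1, fell by 1.06, 0.59 and 0.52. Snx5, a sorting nexin, was at 257, 271 and 272 CPM in WT and 171, 182 and 179 in dKO, with means of 234 under Tet2KO and 188 under Id1KO. The strains of the alleles are not given in the sources used here, so position and label cannot be told apart.

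**Figure D5:**
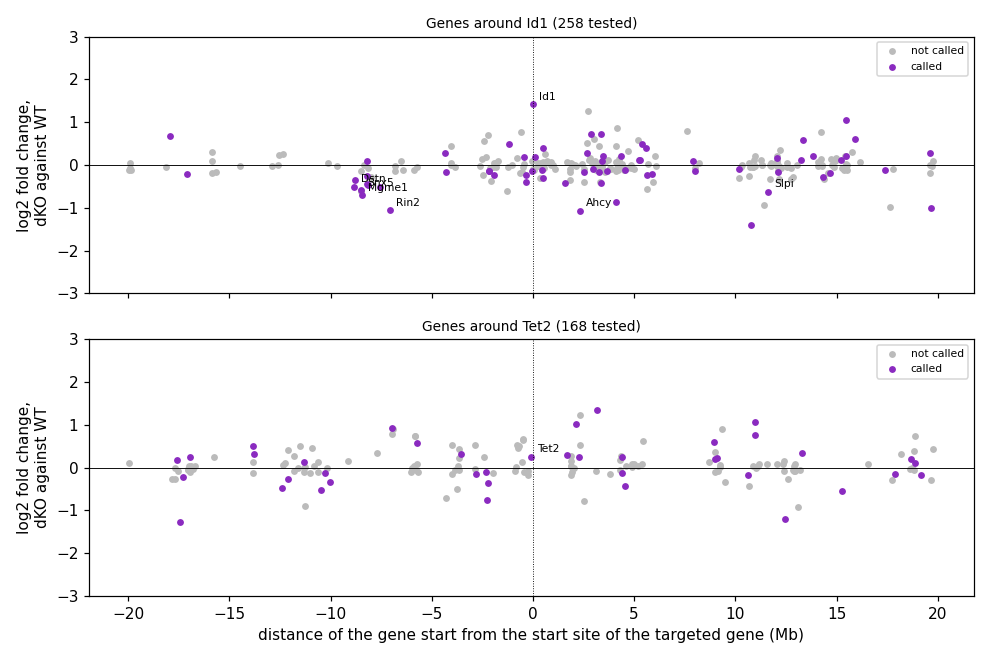
Log2 fold change of dKO against WT (vertical axis) for tested genes within 20 Mb of the start of Id1 (top, 258 genes) and Tet2 (bottom, 168 genes), by distance in Mb (horizontal axis), with called genes in purple. Called genes lie on both sides of both loci, and the dense group below 0 left of Id1 includes Snx5, Dstn and Rin2.

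Whether the dKO difference equals the sum of the single-label differences was asked with the interaction term of the same fit, the log2 value of dKO plus WT minus those of both single labels. It passed the threshold for 2078 of 14346 genes (14.5%). Hoxa9, Ccnd1, S100a9 and Spon2 did not pass it. The adjusted p was 0.375 for Hoxa9, 0.496 for Ccnd1, 0.926 for S100a9 and 0.354 for Spon2, with interactions of -0.14 ± 0.095, 0.11 ± 0.097, -0.02 ± 0.11 and 0.28 ± 0.19. Fosb, which stepped down over both labels, had -0.07 ± 0.06 (adjusted p 0.498). It passed for Vcam1 at -0.44 ± 0.094 (adjusted p 0.00348), Prg2 at -0.66 ± 0.042 (1.05e-09), Klf2 at 0.75 ± 0.1 (3.72e-05) and Mecom at -0.64 ± 0.2 (0.0424). Vcam1, Prg2 and Mecom were lower in dKO than the sum of the single-label differences gives, and Klf2 was higher.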

How the data were processed

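Estimated counts per gene were deposited for 12 libraries and 55450 genes. Per the submitters' processing notes they were made with STAR and RSEM on mm10, and the versions, the annotation and the strand setting are not given in the sources used here. About 5% of genes per library had values that are not whole, so the authors' estimated counts were rounded. All identifiers matched GENCODE M21 (GRCm38), which gave symbols, positions and classes. Genes were kept by edgeR's filterByExpr (minimum count 10), TMM scaling was applied, and the 12 libraries were fitted together with 1 mean per genotype label by the quasi-likelihood model (8 residual degrees of freedom). F-tests were two-sided with Benjamini-Hochberg adjustment, and the steps were tested on simulated data. With 3 libraries a label, the smallest p of an exact permutation test is 0.1, so no such test was made. All pairs of libraries within a label differed by more than sampling noise, so all were kept. That check cannot tell separate samples from repeat libraries of 1 cell sample, which can also differ by more than sampling noise. Copies were sought with blast at 95% identity over 100 bases, and those sharing 200 or more were summed. Promoters are RefSeq's (GRCm38.p6, 250 bases before and 50 after a start, 1 per gene), with motifs read on both strands.

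Named genes were Tet2, Id1, Kit, Tet1, Tet3, Id2, Id3, Tcf3, Tcf4, Tcf12, Trp53, Cdkn1a and Cdkn1b, the 10 highest and lowest under the rule in the text, up to 3 called members of each of 35 lists with at least 5 CPM and the largest absolute change, and the 3 most abundant called genes. Other members of the lists are also given, and a few are not reported here. The members and lists were chosen with earlier results of these data known. The fits used edgeR 4.0.16 with limma 3.58.1 in R 4.3.3, and DESeq2 1.42.0 as an alternative. Sequences were compared with blast 2.17.0, and tables and plots were made in Python 3.11.15 with matplotlib 3.10.9. Alternatives were other scalings and filters, DESeq2, a fit of only these 6 libraries, a replicate block, each library left out, and sums with copies.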

Additional observations from a re-analysis of the deposited data

Results flagged for a closer look

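Of the 20 genes named at the 2 ends of the comparison, 12 had an interaction of the Tet2 and Id1 labels past an edgeR adjusted p of 0.05, where 14.5% of all genes tested did. The 20 genes were chosen on dKO and WT values that also enter the interaction, so nothing is read from the difference of these shares. They are given because the change that goes with 1 label then differs between the backgrounds of the other. In 6 genes dKO was lower than the sum of the single-label differences gives. These were Adnp at -1.91 ± 0.4 (SE; adjusted p 0.00279), Rbm44 at -1.54 ± 0.21 (3.76e-05), Eps8l1 at -0.97 ± 0.2 (0.00288), Ifitm1 at -0.70 ± 0.075 (2.48e-06), Mgl2 at -0.67 ± 0.21 (0.0425) and Efcab7 at -0.60 ± 0.19 (0.041). For Ifitm1 both single labels were already above WT, so the dKO level of 52.4 CPM was a step of less than the sum.

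In the other 6 genes dKO was higher than that sum. These were Mospd3 at 0.64 ± 0.18 (0.0177), Col5a1 at 0.99 ± 0.16 (0.000357), Hbb-bs at 1.75 ± 0.15 (1.38e-07), Snora74a at 1.75 ± 0.12 (2.32e-09), Amd2 at 2.34 ± 0.32 (4.15e-05) and Xist at 2.63 ± 0.097 (9.25e-14). For Hbb-bs the mean was 7.53 CPM under WT, 4.404 under Tet2KO, 7.16 under Id1KO and 14.04 under dKO. For Snora74a it was 24.2, 8.41, 8.52 and 9.93. Adnp and Amd2 share reads with other genes, and their values alone are uncertain.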

How the results depend on the processing

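The counts of genes called, called higher and over 2-fold stayed within 1.5 times their reported values under every alternative, while genes called lower in dKO than WT went from 1287 to 839 under DESeq2 and to 1200 with a replicate block. The 2754 calls became 1868 under DESeq2, 2963 without the filter on low counts and 1999 to 2531 when a library was left out. The share of calls that were higher in dKO, 53.3%, ran from 50.2% to 56.3%, except for 47% without the filter. Deviations of same-numbered WT and dKO libraries correlated at 0.087, 0.268 and 0.286, each higher than with any other number. Pairs with other numbers ran from -0.257 to 0.0137. The labels do not say what the number means, and the main fit has no block for it. With a replicate block 2565 genes were called. Of 118 named genes called, 94 kept the call under every setting and 24 lost it under at least 1, most often Kit (10 settings), Mitf and Pdgfrb (9 each). Among lists, DESeq2 or a fit without WT replicate 2 or 3 left 1 lower of heme synthesis (without WT replicate 2), 1 lower of glycolysis (DESeq2) and 1 lower of sterol synthesis (without WT replicate 3), each from 3. Summing copies reversed 3: Hist1h4m to -0.0213, Slc25a37 to -0.0466 and Amd2 to 0.0482, each with no call. Counts thinned to the smallest library were added after the data were seen. Depth was too low to test Id3, Id4 and Cdkn1c.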

Other observations

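The genes below were chosen after their values were seen, because they lie far from the rest or carry their change in a pattern over the 4 labels that the lists do not cover. Ctse, an aspartic protease (cathepsin E), was at 172, 180.5 and 176 CPM in WT and 81.5, 82.6 and 83.3 in dKO (-1.09 ± 0.03, edgeR adjusted p 7.38e-16), with means of 52.7 under Tet2KO and 109 under Id1KO. All 9 libraries with a null label were thus below WT. Chil1, a chitinase-like protein, was at 5.13, 3.61 and 5.35 CPM in WT and 0.1902, 0.299 and 0.0591 in dKO. Polr2a, the largest subunit of RNA polymerase II, rose from 87.4, 78.6 and 85.3 to 138, 138 and 139.8 CPM (0.73 ± 0.039), and Setd1b, a histone H3 lysine 4 methyltransferase, by 0.69.

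Some gene models were lowest under dKO, or low under both Id1-null labels. Gm42047 (ENSMUSG00000110631.1, chr8:121833247-121841178) was at 246, 244 and 249 CPM in WT and 50.1, 48.1 and 47.7 in dKO, with means of 201 under Tet2KO and 275 under Id1KO. The interaction was -2.21 ± 0.043 (adjusted p 1e-18). Gm47761 (ENSMUSG00000112478.1, chr10:17318085-17323228) showed the same order at a lower level, from 21.03 to 4.14 CPM, with an interaction of -2.32 ± 0.11 (1.44e-11). Gm16867 and Gm27177, both near Slc25a37 on chromosome 14, had 0 counts in every library labelled Id1KO or dKO. In WT they were at 9.18, 7.58 and 9.403 and 1.92, 4.85 and 4.701 CPM, so dKO was at least 144-fold and 62.9-fold lower, against a floor of 3 counts over the group. The sum of Gm16867 with Slc25a37, whose sequence it shares, differed by -0.05. Mid1 on chromosome X went from 3.77 ± 0.54 to 0.583 ± 0.18 CPM and Gm47283 on chromosome Y from 41.4 ± 1.7 to 1.69 ± 0.58, and both were also low under Id1KO, at 0.377 and 4.596.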
